A study of Nothobranchius furzeri with 12 samples.

Results

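Most genes differ in level between brain and skin of the killifish Nothobranchius furzeri, an annual fish kept for research on ageing because of its short life. The genes described here are a small set that took a like, abundant share of the library total in both tissues. Under the other scalings given below, the skin median was above the brain median in all 165. A gene entered the set when its median was at least 100 CPM (a gene's reads scaled to the same total of reads in genes for every library) in brain and in skin, the ratio of the skin median to the brain median lay between 2/3 and 1.5, and the highest skin library was below 10 times the lowest, with 0.5 CPM added to each. Of 23546 genes in the deposited table, 165 met this rule and are called shared-level genes below. The labels name no treatment. All libraries came from fish of the strain MZM-0410 (spelled MZM-0401 in the design text), a strain derived from wild fish, at an age of 39 weeks, and each was made from total RNA of 1 tissue of 1 fish. There were 6 brain libraries (fish 6, 8, 24, 38, 41 and 46) and 6 labelled skin (fish 6, 8, 12, 38, 41 and 46), and the rule used the 6 brains and 5 of the skins.

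Brain is built mainly of neurons and glia. Fish skin is a living epidermis with mucous cells over a dermis that carries scales and pigment cells. Genes read at a like level in such unlike tissues are often those every cell needs, for making protein, supplying energy and keeping the cytoskeleton, and genes of this kind are commonly used as references for comparing tissues. Sequencing counts each gene as a share of its library, so a like level in 2 libraries is a like share of the RNA and not a like number of molecules per cell. In tissue samples, fewer cells of a type and less RNA per cell cannot be told apart. The deposited identifiers are not paired with gene names. None of them (0 of 23546) was found among the identifiers, symbols or accessions that RefSeq gives for 38438 genes of the assembly NfurGRZ-RIMD1, so no gene name or role is given for the shared-level genes, and whether they are of the kinds just named was not tested. The tissue labels could not be checked on named markers for the same reason.

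Libraries held 9100419 to 27094192 reads in genes. The lowest count of any shared-level gene was 552 reads, in skin of fish 12. Counting error was thus small beside the median spread between skins (SD 0.36 in log2 CPM). It was not set against the smallest spreads between brains, which went down to an SD of 0.03. The library labelled skin of fish 6 went against its label and was not used by the rule. Its genes enriched in brain (at least 10 CPM and 20 times the skin median, chosen on the other libraries) had a median of 93.2% of the brain level, and its skin-enriched genes 8.81% of the skin level. Skin of fish 41 had brain-enriched genes at a median of 2.80% of their level in brain (0.408 to 0.911% in the other 4 skins) and skin-enriched genes at 45.7% of their level in skin. The main values are given for 5 skins and again for all 6 libraries labelled skin. On all 6, the rule took 199 genes at a median log2 skin/brain ratio of -0.06.

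Abundant expression in both tissues was uncommon, and a matching level was found in about as many of those genes as a skin excess. A median of at least 100 CPM was reached by 2206 genes in brain and 903 in skin, and by 457 in both. Of these 457, 165 (36.1%) were at a skin/brain ratio above 1.5, 125 (27.4%) below 2/3, and 167 inside the window. The limit on the skin spread removed 2 of the 167, whose highest skin library was 20.04 and 20.13 times the lowest, while the widest gene kept was at 8.69. The edges of the rule fell among closely spaced genes. The lowest median inside was 100.4 CPM and the highest outside 99.6, the highest ratio inside was 1.48 and the next outside 1.51, and the lowest ratio inside was 0.671 and the next outside 0.664. Within the set, 80 genes were higher in skin and 85 higher in brain, and the median ratio was 0.986. These values chose the genes and are given as a description.

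**Figure D1:**
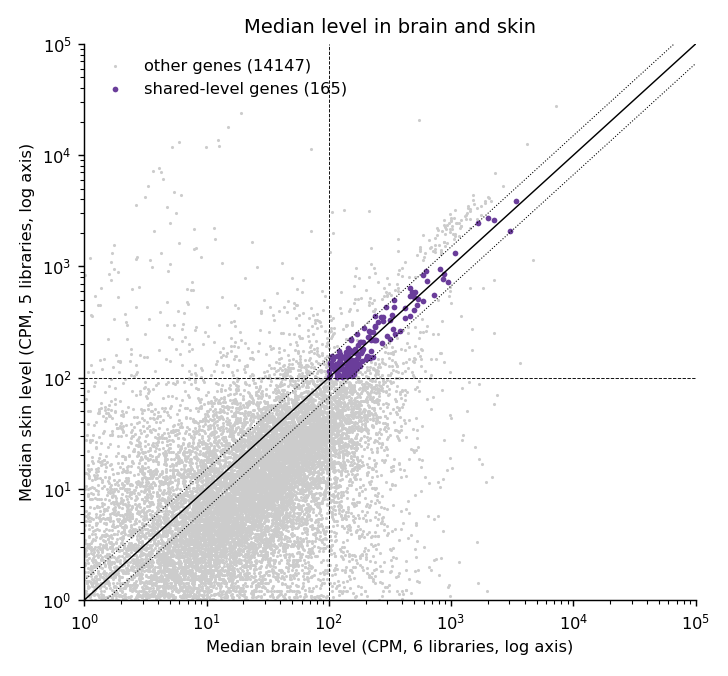
Median level of each gene in 6 brain and 5 skin libraries (CPM, log axes). Purple points are the 165 shared-level genes and grey points the other genes of at least 1 CPM in both tissues. The solid line marks equal levels, the dotted lines ratios of 2/3 and 1.5, and the dashed lines 100 CPM. With the library total, as drawn, most grey points lie below the solid line, where skin is lower.

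The rule fixed a like share of the library total in both tissues, and the summed shares are given as a description. The 165 genes together took 4.97 ± 0.177% of the reads in brain (SD, n = 6), and 5.49 ± 0.623% in skin (SD, n = 5). The library labelled skin of fish 6 had 5.01%. With that library counted as skin, the skin value was 5.41 ± 0.591% (SD, n = 6). The highest shares were in skin of fish 41, at 6.14%, and fish 12, at 5.86%, and the lowest in the brain of fish 41, at 4.73%. A high share was not always a high typical level. The median shared-level gene was at 144 CPM in skin of fish 41, the lowest of any library. In skin of fish 12 it was at 208 CPM, the highest. The skin share of fish 38, 4.80%, and of fish 46, 4.84%, lay within the range of the brains, so the tissues overlapped. All reads of the set were also divided by the reads outside the 100 most abundant genes of each library. Shared-level genes among those 100 stayed in the numerator. This gave a mean of 5.89% in brain (5.57 to 6.21%, n = 6) and 10.3% in skin (9.33 to 11.8%, n = 5), without overlap. The gap follows from summed shares that are alike by choice and from the larger part of skin reads in those 100 genes. The library labelled skin of fish 6, at 5.96%, lay among the brains, and with it the skin mean was 9.57 ± 1.98% (SD, n = 6). In most of the set the level was moderate. The smaller of the 2 medians reached 500 CPM in 17 genes and 1000 CPM in 6.

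Per length of the gene model, the set spanned a wide range of levels, alike in both tissues by the choice of like CPM. The deposited RPKM (reads scaled to model length and library total) of the shared-level genes ran from 9.0 to 1834 in brain, with a median of 74.4, and from 8.97 to 2710 in skin, with a median of 72.8. The gene at the top in both tissues was a short model of 900 bases. Models of the set had a median of 2754 bases (342 to 14203), against 2324 over all genes with a count. The 165 genes abundant in both tissues but higher in skin had a median of 1475 bases, and the 125 higher in brain 4837, so the shared-level genes lay between these classes. Whether length has a part in that order was not tested. The rule set a floor on reads and not on reads per length, and the shortest 55 of the shared-level genes were thus at a median of 201 RPKM in brain, the longest 55 at 26.6, with median CPM of 171 and 159.

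The place of the set among all genes differed between the tissues, and the choice of genes bears on it. At a like level a gene stands nearer the top in skin, where fewer genes reached 100 CPM (903) than in brain (2206). The ranks are given as a description. Ranked by RPKM within a library, where the scaling of libraries has no part, the median shared-level gene was 859 ± 43.0 from the top in brain (SD, n = 6) and 653 ± 17.8 in skin (SD, n = 5). The 5 skins ran from 623 to 666 and the brains from 807 to 907, without overlap, and the library labelled skin of fish 6 was at 793. With it counted as skin the value was 676.5 ± 59.2 (SD, n = 6), still without overlap. Over all 457 genes abundant in both tissues, the median rank was 529 ± 18.6 in brain (SD, n = 6) and 473 ± 18.3 in skin (SD, n = 5), or 481 ± 26.2 over all 6 libraries labelled skin (SD, n = 6). Beside this, the 100 most abundant genes of a library took 15.6 ± 0.404% of the reads in brain (SD, n = 6) and 46.7 ± 2.26% in skin (SD, n = 5). All 6 libraries labelled skin gave 41.6 ± 12.7% (SD, n = 6). Between 5 and 6 shared-level genes were among those 100 in each skin, and 7 to 10 in each brain. Of 14312 genes whose median reached 1 CPM in both tissues, 73.7% had a lower skin/brain ratio than the median shared-level gene. With the library total, the median log2 ratio (skin minus brain) of those 14312 genes was -1.05, a value that moved with the scaling, as given next.

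Whether the shared-level genes are equal in brain and skin rested on what the reads were scaled to. With the library total, as the rule says, their median log2 ratio was -0.02. With TMM factors, which take the bulk of genes as the reference, it was 1.14 (quartiles 0.83 and 1.4), a median ratio of 2.21, and 164 of the 165 genes then lay above 1.5. DESeq2 size factors gave 1.15 and left 163 above 1.5. With totals that leave out the 100 most abundant genes of each library, the median was 0.66, with 92 genes above 1.5 and 73 inside the window. Under each of these 3 scalings, all 165 genes had a ratio above 1. The median log2 ratio of the 14312 genes of at least 1 CPM moved too, from -1.05 with the library total. It was 0.13 with TMM factors, 0.11 with DESeq2 size factors and -0.37 without the 100 most abundant genes. The same rule on TMM-scaled CPM took 208 genes. It shared 1 gene with the set, 0.606% of the shared-level genes and 0.481% of the 208.

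**Figure D2:**
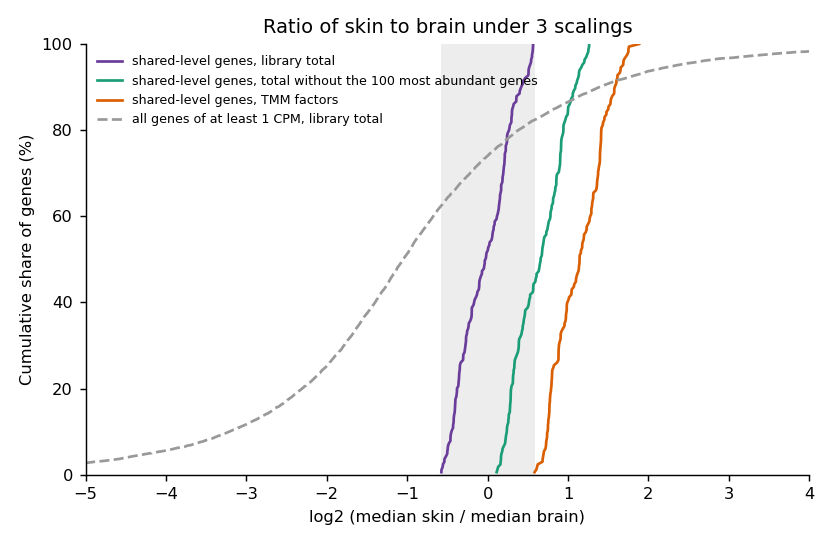
Cumulative share of genes (%) against the log2 ratio of the skin median (5 libraries) to the brain median (6 libraries). Solid lines show the 165 shared-level genes under 3 scalings, the dashed line the 14312 genes of at least 1 CPM with the library total, and the shaded band the window from 2/3 to 1.5. The curve moves from a median of -0.02 with the library total to 0.66 without the 100 most abundant genes and 1.14 with TMM factors.

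The fits across all genes showed the same dependence. The rule used this contrast, so the calls describe the set and support nothing. With TMM factors, 164 of the 165 genes were called higher in skin at an FDR of 0.05 (edgeR quasi-likelihood test, 6 brain and 5 skin libraries), where 36.9% of the 20149 genes tested were called in that direction. None (0) was called higher in brain, where 39.5% of all genes were; none (0) had an unadjusted p below 0.05 in that direction, and DESeq2 also called 0. A change beyond 1.5-fold was called for 139, against 29.9% of all genes. With library size only, 26 were called higher in skin, against 18.7% of all genes, and 19 higher in brain, against 63.3%, while a change beyond 1.5-fold was called for 2, against 15.7% in that direction. When TMM factors were used on all 12 libraries as labelled, 155 were called higher in skin, against 31.8% of 19797 genes, and 89 beyond 1.5-fold, against 23.5%.

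The overlap of libraries is also set by the choice of genes and by the scaling, which moved the log2 ratios of the set by a median of 1.17 with TMM factors. On CPM, every skin lay above every brain in 13 of the shared-level genes, against 13.4% of the genes tested, and every brain above every skin in 12, against 58.5%; in the other 140 the tissues overlapped. On TMM-scaled CPM, every skin lay above every brain in 141, against 28.7%.

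Of the shared-level genes whose smaller median was highest, the first was Nfu_g_1_016049, which is also the first among those higher in skin. It had a model of 2577 bases and 3090 to 3603 CPM in brain, with a median of 3387. In skin it had 4086 CPM in fish 8, 3852 in fish 12, 3029 in fish 38, 5870 in fish 41 and 2816 in fish 46. The skins thus reached both above and below all 6 brains, and the library labelled skin of fish 6, at 3446, lay among the brains. Per length its level was 1309.5 ± 74.7 RPKM in brain (SD, n = 6) and 1525 ± 469 in skin (SD, n = 5). The fitted log2 fold change (skin minus brain) was 0.22 (SE 0.17) with library size only, 1.42 (SE 0.18) with TMM factors and 1.27 (SE 0.29) with TMM factors and all 12 libraries.

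Nfu_g_1_017407 was the first among genes higher in brain and lay near the lower edge of the window, at a ratio of 0.681. It had 2786 to 3359 CPM in brain, with a median of 3043. In skin it had 2525 CPM in fish 8, 2072 in fish 12, 2069 in fish 38, 4250 in fish 41 and 1723 in fish 46, with 2851 for the library labelled skin of fish 6. Skins of 4 fish thus lay below every brain and that of fish 41 above every brain. The sign of its fitted log2 fold change turned with the scaling, and TMM factors raised the ratios of the whole set. With library size only it was -0.27 (SE 0.21), little larger in size than its SE. It was 0.93 (SE 0.21) with TMM factors and 0.80 (SE 0.28) with TMM factors and all 12 libraries. Per length it was at 1025 ± 74.7 RPKM in brain (SD, n = 6) and 852 ± 338 in skin (SD, n = 5).

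The steadiest gene of the set over the 11 libraries was Nfu_g_1_002310, with a model of 2219 bases and an SD of 0.12 in log2 CPM. It had 110 to 122 CPM in brain, with a median of 119. In skin it had 127 CPM in fish 8, 142 in fish 12, 114 in fish 38, 103 in fish 41 and 117 in fish 46, with 122 for the library labelled skin of fish 6. The lowest and the highest library were both skins, and the brains lay between them. The fitted log2 fold change was 0.03 (SE 0.12) with library size only, 1.24 (SE 0.14) with TMM factors and 1.10 (SE 0.22) with TMM factors and all 12 libraries.

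Nfu_g_1_017420, a model of 1695 bases, was the steadiest of the genes higher in skin. It had 129 to 150 CPM in brain, with a median of 136. In skin it had 144 CPM in fish 8, 174 in fish 12, 141 in fish 38, 167 in fish 41 and 151 in fish 46, with 142 for the library labelled skin of fish 6. These 5 skins lay above the brain median and 3 of them above every brain. Per length it was at 81.3 ± 4.09 RPKM in brain (SD, n = 6) and 91.8 ± 8.5 in skin (SD, n = 5). The fitted log2 fold change was 0.18 (SE 0.12) with library size only, 1.39 (SE 0.13) with TMM factors and 1.23 (SE 0.24) with TMM factors and all 12 libraries.

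**Figure D3:**
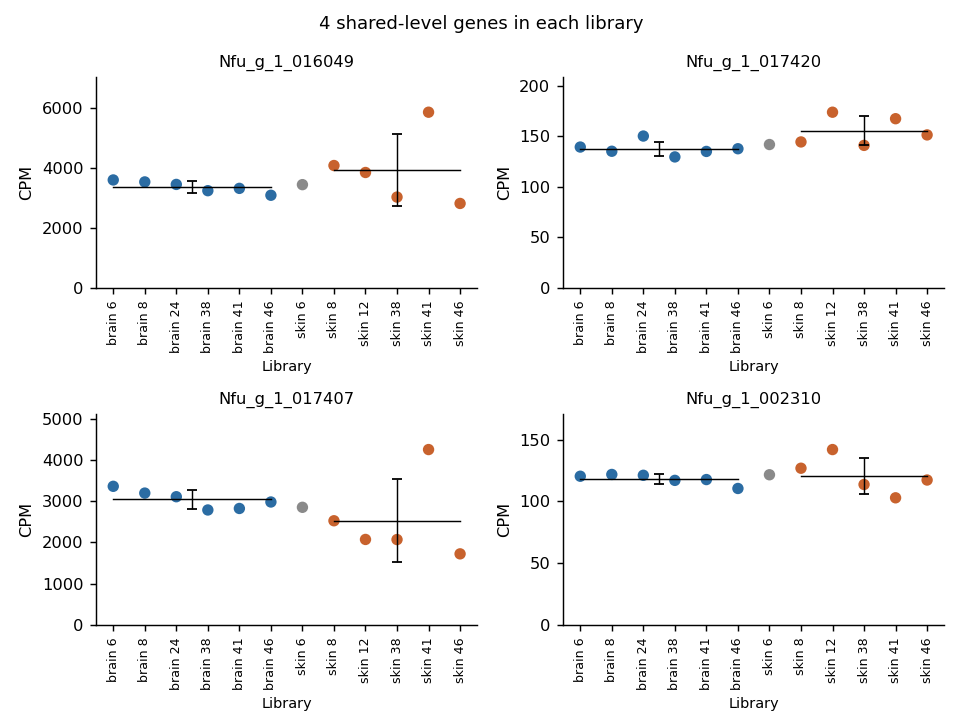
Level (CPM, axes from 0) of 4 shared-level genes in each library, with brains in blue, 5 skins in orange and the library labelled skin of fish 6 in grey. Horizontal lines are means and bars 1 SD for the 6 brains and the 5 skins. In Nfu_g_1_016049 and Nfu_g_1_017407 the skin of fish 41 is the highest library, while Nfu_g_1_002310 stays between 103 and 142 in all of them.

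An equal median did not mean an equal level in every skin. In 43 of the 165 genes, all 5 skins lay between 2/3 and 1.5 times the brain median, in 72 genes 4 of them did, in 44 genes 3 and in 6 genes 2. By library, skin of fish 46 had 150 genes inside that window, fish 38 had 144, fish 8 had 132, fish 41 had 119 and fish 12 had 102. The brains had 160 to 163 inside it, but the medians they are set against are their own. The library labelled skin of fish 6 had 158 of the genes within the window around the brain median and 152 within that around the skin median. The medians are close by choice. That library lay nearer the brain median in 129 of the 165 genes, at a median absolute log2 distance of 0.07 from the brain median and 0.28 from the skin median. Of the genes abundant in both tissues but higher in skin, it had 153 of 165 inside the window around brain and 7 inside that around skin.

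**Figure D4:**
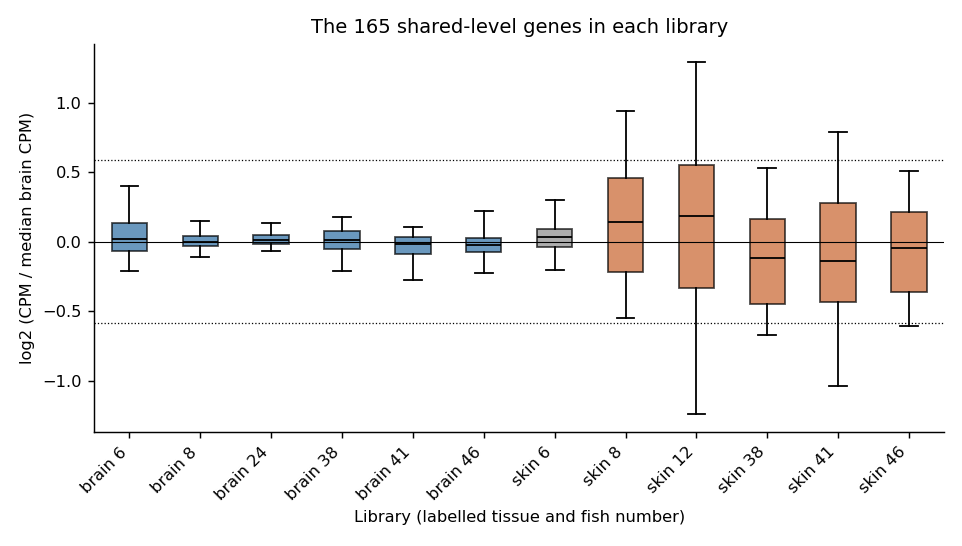
Level of the 165 shared-level genes in each library as log2 of CPM over the median brain CPM. Boxes show quartiles with the median, whiskers the 5th and 95th percentiles, dotted lines the window from 2/3 to 1.5; brains are blue, 5 skins orange and the library labelled skin of fish 6 grey. Boxes are narrow in brain and wide in skin, widest in fish 12.

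When the rule was rerun without a fish, most of the genes then chosen lay inside the window in that fish. The rule itself was set with earlier results of these data known, so no fish was wholly outside the choice. The rule was rerun 4 times, each time without both libraries of 1 fish, and the skin/brain ratio was then taken within that fish. Inside the window were 130 of 163 genes in fish 8 (79.8%), 138 of 179 in fish 38 (77.1%), 138 of 174 in fish 46 (79.3%) and 107 of 181 in fish 41 (59.1%). Of the other genes that were abundant in both tissues without that fish, 8.36 to 11.3% lay inside it. Those genes had failed the rule in the remaining fish, by the ratio or the skin spread, so the contrast is partly set by the choice. Over all genes abundant in both tissues without that fish, 27.5 to 36.2% lay inside the window. The misses were not balanced. In fish 8, 22 genes lay above the window and 11 below, whereas in fish 38 it was 8 and 33, in fish 41 28 and 46, and in fish 46 9 and 27. The median log2 ratio was 0.15 in fish 8 and -0.27, -0.25 and -0.19 in fish 38, 41 and 46. With 1 library per tissue and fish these shares have no replicate check. The lowest share was in fish 41, whose skin had the higher level of brain-enriched genes given above; the part of that in the result was not tested.

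The spread between brains, which the rule did not use, was small. The SD of log2 CPM over the 6 brains had a median of 0.10 over the shared-level genes (quartiles 0.07 and 0.14), and a median of 0.10 over the 457 genes abundant in both tissues. The highest brain was below 1.5 times the lowest in 146 of the 165 genes (88.5%, against 91.2% of the 457) and below 2 times in 155. Over the 5 skins the median SD was 0.36 (quartiles 0.29 and 0.58), against 0.34 (0.28 and 0.47) over the 457. Of the shared-level genes, 26 were below 1.5 times in skin and 99 below 2 times (60%, against 66.7% of the 457). The rule had set an upper limit on the skin spread of the set, which was still not narrower than that of the 457. With the library labelled skin of fish 6 counted as skin, the median SD was 0.35. The skins spread more than the brains in 162 of the 165 genes, and in 445 of the 457. Over all 11 libraries, 12 shared-level genes stayed within 1.5-fold and 79 within 2-fold. Length had little relation to the spread. Across the 165 genes, which share the same libraries and their depth, the rank correlation (Spearman's rho) of model length with the skin SD was 0.03 and with the brain SD -0.01, and that of the brain SD with the skin SD was 0.29.

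Skins of fish 12 and 41 lay farthest from the other skins. The median absolute deviation of a library from the median of the other skins, in log2 CPM over the shared-level genes, was 0.49 in fish 12, 0.41 in fish 41, 0.26 in fish 8, 0.24 in fish 38 and 0.20 in fish 46. Over all genes of at least 100 CPM in skin, the values were 0.47, 0.58, 0.25, 0.23 and 0.23 in the same order. Fish 12 had the highest skin level in 63 of the 165 genes and the lowest in 41. Fish 41 had the highest in 43 and the lowest in 57. The first component of the skin deviations held 63.6% of their variance. It set fish 12 (loading 0.74) and fish 8 (0.27) against fish 41 (-0.49), fish 38 (-0.28) and fish 46 (-0.24). In brain the deviations were 0.06 to 0.12, with the largest in fish 6, which was the highest brain in 61 of the genes.

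A few shared-level genes varied between brains, and their levels in each fish are given as a description. The highest brain was over 3 times the lowest in 5 genes. The one with the widest brain spread, a model of 2544 bases, had 75.8 CPM in the brain of fish 8, 126 in fish 24, 157 in fish 41, 277 in fish 6, 306 in fish 46 and 527 in fish 38. In skin it had 84.0 CPM in fish 8, 91.7 in fish 12, 258 in fish 46, 301 in fish 41 and 641 in fish 38. Fish 8 was thus lowest and fish 38 highest in both tissues. In deviations from the tissue means over 6828 genes, however, the skins of fish 38 and 41 did not match the brain of their own number best. Their correlations were 0.13 and 0.06, against 0.17 and 0.07 with another brain.

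The next, a model of 2403 bases, stood out by 1 fish. It had 42.3 CPM in the brain of fish 41 and 109 to 173 in the other brains, and 48.7 in the skin of fish 41 and 205 to 427 in the other skins. A model of 871 bases was highest in fish 46 in both tissues, with 915 CPM in brain against 231 to 563 in the other brains and 1419 in skin against 268 to 740 in the other skins. A model of 5308 bases was also highest in fish 46, with 191 CPM in brain and 286 in skin, against 55.7 to 113 in the other brains and 79.4 to 157 in the other skins. The fifth, a model of 591 bases, was at 777 CPM in the brain of fish 6 and 219 to 248 in the other brains, and in skin at 1808 in fish 12, 793 in fish 8 and 255 to 287 in fish 38, 41 and 46.

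These genes were also read in the library labelled skin of fish 6, where they did not follow the brain of fish 6 closely. The model of 2544 bases was at 150 CPM there, against 277 in the brain of fish 6 and 157 in that of fish 41. The model of 2403 bases was at 44.4, against 109 and 42.3, that of 871 bases at 240, against 292 and 231, and that of 5308 bases at 62.6, against 96.7 and 55.7. In these 4 genes the value lay nearer that of the brain of fish 41 than that of fish 6. In the last of them the brain of fish 38, at 67.9, was nearest of all. The model of 591 bases was at 569, against 777 in the brain of fish 6 and 243 in that of fish 41, and there it lay nearer fish 6. The brain of fish 41 was not singled out before the values were seen. It was the lowest brain for the models of 2403, 871 and 5308 bases. The fish from which this library came was not tested.

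**Figure D5:**
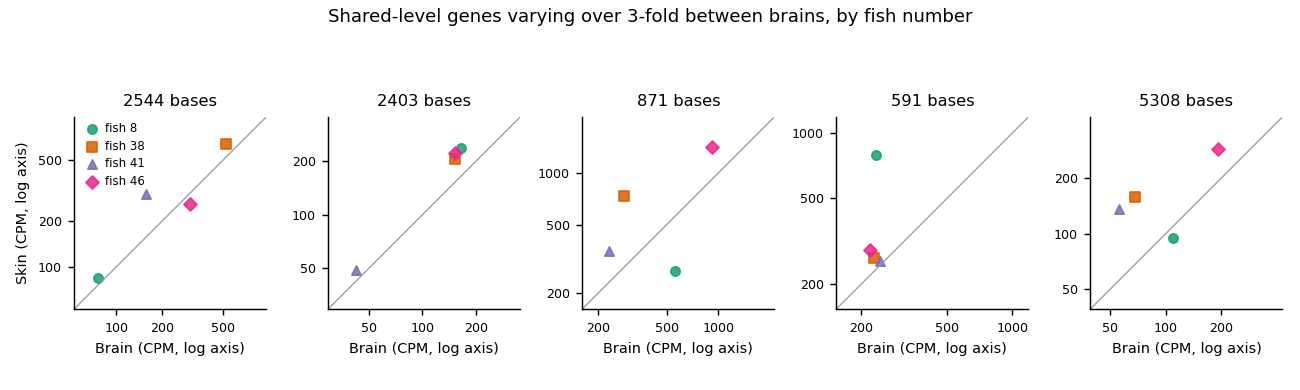
Skin level against brain level (CPM, log axes) in fish 8, 38, 41 and 46 for the 5 shared-level genes whose highest brain was over 3 times the lowest, each headed by its model length. The grey line marks equal levels. The first panel runs from fish 8 at the bottom to fish 38 at the top in both tissues, and in the second fish 41 stands alone near 42.3 and 48.7.

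Over the whole set, it was counted how often brain and skin had the same fish highest or lowest. Among the 4 fish with both tissues in the rule (8, 38, 41 and 46), the same fish was highest in brain and in skin in 57 of the 165 genes (34.5%), where 28.7% of the 20149 genes tested were so, and in 132 of the 457 genes abundant in both tissues (28.9%). The same fish was lowest in both in 53 (32.1%), against 29.8% of the genes tested and 42.0% (192) of the 457. In the 10 shared-level genes whose highest brain was over 2 times the lowest, a limit chosen after the values were seen, the same fish was highest in 8 and lowest in 6. Of the 457 genes abundant in both tissues, 19 passed that limit, those 10 among them, with the same fish highest in 13 and lowest in 9. The share over all genes tested that pass the limit is not given, so these counts are not read as a trait of the set. With 4 fish and no second sample of a tissue, lasting differences between fish were not separated from differences between sampling occasions.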

How the data were processed

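Libraries were prepared from total RNA with Illumina's TruSeq kit, per the labels' protocols. The submitters' processing notes list featureCounts 1.4.3-p1, TopHat2 2.0.6 and CASAVA 1.8.4. The sources used here give neither their settings nor the genome build, annotation or strand setting. Overlapping genes and near-identical copies may therefore share reads. The authors deposited, per the file headers, a whole-number read count and an RPKM value per gene and library. Count, RPKM and total gave 1 gene length in all libraries (relative tolerance 0.001) for all 23212 genes with a count; 334 had none. CPM used these counts and their totals.

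All genes were fitted with edgeR 4.0.16 (R 4.3.3): TMM factors, its filter on low counts, robust quasi-likelihood, Benjamini-Hochberg adjustment at an FDR of 0.05, and a test beyond 1.5-fold. The main fit had tissue only, so the 2 tissues of fish 8, 38, 41 and 46 were treated as separate. An alternative fit added fish number as a block. All 165 shared-level genes passed the filter. An SE printed with a fitted log2 fold change is the absolute log2 fold change divided by the square root of the quasi-likelihood F statistic. The main fit was tested on simulated data in which 200 genes were raised in skin and all others were equal in the tissues. That test does not cover data in which most genes differ, as they do here. DESeq2 1.42.0 and limma 3.58.1 (log2 of RPKM plus 1) were alternatives. Fish numbers in the labels' fish identifiers were taken to mark the same fish; same-numbered libraries deviated from their tissue means with correlations of 0.20, 0.13, 0.06 and 0.37 in fish 8, 38, 41 and 46 over 6828 genes. The highest correlation of those skins with another of the 4 brains was 0.11, 0.17, 0.07 and -0.04, so fish 38 and 41 did not match their own number best.

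The shared-level genes and the other classes were chosen with earlier results of these data known. The 4 identifiers printed are, among genes higher in skin and among those higher in brain, the one with the highest smaller median CPM and the one with the lowest SD of log2 CPM (0.5 added). Lists of named pathway genes and cell type markers could not be applied. Sample replicates are separate fish per the labels.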

Additional observations from a re-analysis of the deposited data

Results flagged for a closer look

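Of 26 groups of 5 or 6 library values examined over the shared-level genes, 2 held 1 library far from the others. The rule for flags is set for about 1 in 20 by chance in separate groups of untied values. These groups share libraries and related measures, so the 2 flags are not weighed against chance. The brain of fish 46 had 10 shared-level genes among its 100 most abundant genes, against 7 to 8 in the other brains, which are tied whole numbers. The library labelled skin of fish 6 had a median RPKM rank of 793 for the shared-level genes, against 623 to 666 in the other libraries labelled skin. That library was already known to go against its label.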

How the results depend on the processing

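The number of shared-level genes was 160 to 180 when each library was left out in turn, with 146 to 164 of the 165 kept, and 199 with all 12 libraries (163 kept). It moved to 461 at a floor of 50 CPM, 53 at 200 CPM (median log2 ratio 0.15), 261 with a window of 0.5 to 2 and 98 with a narrower one from 0.8 to its inverse, and to 396 when the rule ran on totals without the 100 most abundant genes of a library (208 and 204 with TMM factors and DESeq2 size factors). With the 165 genes held fixed, a comparison chosen after seeing the data, the median log2 ratio moved to 1.14 with TMM factors, 1.15 with DESeq2 size factors and 0.66 without the 100 most abundant genes. Leaving out each library kept it at -0.10 to -0.01 over the genes then chosen. When each library was left out, calls with TMM factors at an FDR of 0.05 numbered 158 to 165 higher in skin (34.4 to 38.2% of all genes). Those higher in brain numbered 0 (38.3 to 42.6% of all genes). Beyond 1.5-fold they were 120 to 141 in skin (28.2 to 30.4%) and 0 in brain (32.1 to 34.4%). In both directions together, all genes gave 14735 to 16471 calls, and 12309 to 13200 beyond 1.5-fold. With fish number as a block, 160 were higher in skin (35.0% of all genes), against 164 without it. Beyond 1.5-fold 125 were (28.5%), against 139, and the block changed no direction. With library size only, 26 were higher in skin and 19 in brain, and 2 beyond 1.5-fold; limma on log2 RPKM, which has the library total in it, gave 22 and 29, against 17.9% and 65.5% of all genes. With all 12 libraries, 89 of the set were called higher in skin beyond 1.5-fold, against 23.5% of all genes in that direction. All genes gave 6154 such calls in both directions together. At 2-fold with 11 libraries, 80 of the set were called higher in skin, against 23.6% of all genes. Of the 4 genes named, only the estimate for Nfu_g_1_017407 changed sign, to -0.27 (SE 0.21) with library size only. Over the set, 85 ratios of medians were below 1 with the library total and 0 with TMM factors. Divided by the reads outside the 100 most abundant genes, all reads of the set came to 5.89% in brain and 10.3% in skin. The median spread was 0.08 to 0.10 in brain and 0.31 to 0.39 in skin when each library of the tissue was left out. In the fish left out of each rerun of the rule, a mean of 73.8% of the genes then chosen lay inside the window, and 81.4% with the wider window. On TMM-scaled CPM it was 80.4%, but over other genes. The rule then took 206 to 211, of which 1 to 4 were shared-level genes. No shared-level gene had under 552 reads in a library, but counting error was not set against the smallest spreads between brains.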
